A study of Mus musculus with 24 samples.

Results

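The 36 genes described here are a named list of genes of mitosis, and their rows were read from the count tables of all 24 libraries. They are 36 of 55414 gene identifiers counted, and all 36 passed the filter on low counts that left 16167 genes tested. By role, 6 genes are cyclins, Cdk1 and Cdc25 phosphatases, and 6 are mitotic kinases, chromosomal passenger proteins and Tpx2. The spindle checkpoint, the kinetochore and centromere, and the kinesins have 5 genes each. Partners of the anaphase-promoting complex with securin, and cytokinesis proteins, have 3 each, and Top2a, Mki67 and Hmmr make up the rest. Polyadenylated RNA of 32D cells, an interleukin-3-dependent mouse bone marrow line, was sequenced after 0, 3, 6 and 9 h in 0.05 µg/ml actinomycin D, to follow messenger lifetimes. The cells were of 3 kinds, namely 2 Nat10+/- lines called KO1 and KO2, in which 1 allele of the RNA acetyltransferase gene Nat10 is lost per the label, and WT 32D cells. Every kind was grown with interleukin-3, and each of the 12 groups had 2 libraries, described as biological replicates. Each KO line is a single line, so that a difference from WT cells cannot be told apart from other differences between lines.

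Entry into mitosis is driven by Cdk1 bound to cyclin B, which the Cdc25 phosphatases switch on. The spindle checkpoint then holds the anaphase-promoting complex in check until every kinetochore is attached, after which Cdc20 turns the complex on and securin and cyclin B are destroyed. Most of these genes are transcribed late in the cell cycle, so their summed level in a culture also follows the share of cells in G2 and M. In bulk libraries, fewer cells in those phases and less messenger per cell cannot be told apart. Actinomycin D binds DNA and blocks transcription, and low concentrations are known to act most strongly on ribosomal RNA genes.

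The libraries held 15361601 to 17338939 counts on genes, and levels below are in CPM (counts relative to the library total) scaled by trimmed mean of M values (TMM). Nat10 itself, the check of the labels, stood at 97.7 and 108 CPM in KO1 cells and 99.2 and 95.1 CPM in KO2 cells, against 111 and 113 CPM in WT cells at 0 h. Its log2 fold change at 0 h was -0.12 ± 0.05 (SE, adjusted p = 0.0486) in KO1 and -0.21 ± 0.05 (SE, adjusted p = 0.000291) in KO2 cells, lower than in WT cells in each. At 3 h it was called in neither line (-0.06, adjusted p = 0.397 in KO1, and -0.08, adjusted p = 0.223 in KO2), and at 6 and 9 h it was lower in each. Among myeloid progenitor markers, Csf2rb, the beta chain of the interleukin-3 receptor, was abundant, with 391 and 389 CPM in KO1 cells and 401 and 413 CPM in KO2 cells, against 453 and 441 CPM in WT cells at 0 h, while Mpo, Elane, Cd34 and Kit were at most 0.265 CPM at 0 h and at most 3.57 CPM later. Prtn3 of the same list had 19.5 and 16.4 CPM in KO1 cells and 17.3 and 18.9 CPM in KO2 cells, against 35.0 and 27.5 CPM in WT cells at 0 h. Ctsg had 19.4 and 22.6 CPM in KO1 cells, 0 CPM in both KO2 libraries and 14.8 and 13.9 CPM in WT cells. The label calls the cells lymphoblastocytes. The 4 T lymphoid markers summed to at most 0.449 CPM in every library, and at 0 h the 4 B lymphoid markers summed to at most 0.414 CPM (12.6 to 25.2 CPM later, mostly Cd79a). Macrophage markers (Adgre1, Cd68, Csf1r and Lyz2) summed to 54.1 and 57.6 CPM in the libraries of KO1, 38.3 and 38.3 CPM in those of KO2 and 111 and 111 CPM in those of WT cells at 0 h. At 3 h the sums were 108 and 113 CPM in KO1, 77.7 and 81.8 CPM in KO2 and 271 and 277 CPM in WT cells, and at 9 h 265 and 268 CPM, 220.4 and 221 CPM and 288 and 292 CPM in that order. The single markers did not differ alike. At 9 h mean Csf1r was 30.4 CPM in KO1 and 26.5 CPM in KO2, against 16.8 CPM in WT cells. Mean Cd68 was 217 and 187 CPM against 176 CPM. Adgre1 was lower in the KO lines, at 13.4 and 4.91 CPM against 56.6 CPM, as was Lyz2, at 5.94 and 1.89 CPM against 40.8 CPM. Of the erythroid genes, Hbb-bs, a beta globin, had 2.45 and 2.13 CPM in KO1 cells and 8.51 and 8.47 CPM in KO2 cells, against 0.059 and 0.236 CPM in WT cells at 0 h. Klf1, an erythroid transcription factor, had 14.4 and 15.3 CPM in KO1 cells and 22.5 and 23.4 CPM in KO2 cells, against 15.2 and 13.4 CPM in WT cells at 3 h. Stromal markers summed to 1.05 CPM or less except in WT cells at 0 h, with 4.79 and 7.40 CPM. Added RNA spike-ins made up 240.2 to 353 CPM of KO1, 324 to 844 CPM of KO2 and 6.92 to 15.9 CPM of WT libraries. The protocol states an equal amount for all samples, which these shares do not show, so spike-ins were used only between times of 1 kind of cell. The part of macrophage, erythroid or stromal RNA, or of the spike-in share, in the results below was not tested.

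At 0 h in WT cells, the highest level per kb of exon belonged to Top2a, the topoisomerase that untangles sister chromatids, at 59.3 CPM per kb of exon. Mki67, the proliferation marker that coats mitotic chromosomes, followed at 44.1 CPM per kb of exon, and Ccnb2, a B-type cyclin, at 37.6 CPM per kb of exon. Cdc25c, a phosphatase that activates Cdk1, was lowest at 2.64 CPM per kb of exon, just under the kinetochore protein gene Cenpf at 3.10 CPM per kb of exon. Neighbours in the middle of this order were close, for example Kif11 at 19.0 CPM per kb of exon and Bub3 at the same value to 3 digits. The sum over the 36 genes was 3316 and 3333 CPM in KO1 and 3592 and 3570 CPM in KO2, against 3204 and 3214 CPM in WT cells at 0 h.

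A feature shared by these genes that did not enter the choice of the list is the sequence before their start. RefSeq promoter windows on mouse build GRCm38.p6, from 250 bases before to 50 after a start, matched 30 of the 36 genes, with 33 windows in all. The letters CCAAT, on either strand, stood in the windows of 23 of the 30 genes (76.7%), against 42.4% of 10543 genes tested that have a window. The letters TTTGAA, on either strand, are known as the core of the cell-cycle homology region of late cell-cycle promoters. They stood in the windows of 22 genes (73.3%), against 14.8% of genes tested. Both were found for 19 genes (63.3%), against 6.1%. At least 2 CCAAT matches were found for 16 (53.3%), against 16.1%. Median GC content was 59.0% in the windows of the list and 59.7% in those of genes tested, and a CCAAT and a TTTGAA match overlapped in 0 of the 33 windows. These are matches of letters, not measured binding sites.

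The 120 bases before the start are given for Cdc20 and Ccnb1, whose CPM rose over the whole 9 h of drug. They are also given for Kif11 and Top2a, whose CPM fell, so that the motif matches can be read in genes of either course. Each runs 5′ to 3′ towards the gene, with CCAAT or its complement ATTGG and TTTGAA or its complement TTCAAA in capitals. The GRCm38.p6 positions are chr4:118437344-118437463 on the minus strand for Cdc20, chr13:100786487-100786606 on the minus strand for Ccnb1, chr19:37376262-37376381 on the plus strand for Kif11 and chr11:99024190-99024309 on the minus strand for Top2a.
Cdc20: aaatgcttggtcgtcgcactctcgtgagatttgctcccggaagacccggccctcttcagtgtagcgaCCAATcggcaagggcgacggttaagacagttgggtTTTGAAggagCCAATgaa
Ccnb1: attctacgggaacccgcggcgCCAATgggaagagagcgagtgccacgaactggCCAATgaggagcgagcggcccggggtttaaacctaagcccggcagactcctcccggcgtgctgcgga
Kif11: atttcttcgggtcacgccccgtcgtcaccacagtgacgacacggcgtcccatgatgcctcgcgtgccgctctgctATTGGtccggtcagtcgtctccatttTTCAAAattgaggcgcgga
Top2a: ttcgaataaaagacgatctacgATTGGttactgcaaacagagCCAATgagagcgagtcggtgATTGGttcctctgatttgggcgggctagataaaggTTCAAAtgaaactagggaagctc
Cdc20, Kif11 and Top2a held a match to each motif in these 120 bases, while Ccnb1 held 2 CCAAT matches and 0 TTTGAA matches.

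The first question is how these messengers moved over the drug course. In the first 3 h most fell, and from 3 to 9 h most rose again, in all 3 kinds of cell. The summed level was 2116 and 2096 CPM in KO1 and 2201 and 2196 CPM in KO2, against 2489 and 2541 CPM in WT cells at 3 h. At 9 h it was 2699 and 2679 CPM, 3190 and 3203 CPM and 2896 and 2890 CPM in the same order. The replicate libraries of a group lay within 52.0 CPM of each other in these sums, so the dip and the return exceeded the replicate spread.

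From 0 to 3 h, 27 of 36 genes fell and 6 rose in KO1 cells, where 33.4% and 37.9% of all genes tested did so (edgeR quasi-likelihood test, Benjamini-Hochberg adjusted p under 0.05). In KO2 cells 28 fell and 7 rose, against a background of 33.3% and 37.6%. In WT cells 22 fell and 9 rose, against 33.5% and 38.6%. The median log2 change of the 36 was -0.68, -0.64 and -0.28 in KO1, KO2 and WT cells, beside 0.10, 0.10 and 0.13 over all genes tested. From 3 to 9 h, 27 rose and 5 fell in KO1 cells (background 32.1% and 33.0%). In the same time 28 rose and 5 fell in KO2 cells (32.5% and 33.7%), and 23 rose and 6 fell in WT cells (34.2% and 31.6%). Over the whole 9 h, 12 rose and 21 fell in KO1, 14 rose and 19 fell in KO2, and 14 rose and 18 fell in WT cells. The backgrounds for rises and falls over 9 h were 42.2% and 38.3% in KO1, 42.0% and 38.8% in KO2, and 43.2% and 38.5% in WT cells.

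These shares are relative to the rest of each library. With spike-in totals as library sizes, the median of all genes over 9 h moved to 0.20 in KO1, -1.03 in KO2 and -0.70 in WT cells, so that relative to the spike-ins most messengers fell in KO2 and WT cells. On that scale 4 of the 36 rose and 30 fell in KO2 cells over 9 h, and 4 rose and 28 fell in WT cells. From 0 to 3 h the spike-in splits were 2 up and 32 down in KO2 and 3 up and 28 down in WT cells, beside medians over all genes of -0.55 and -0.36. From 3 to 9 h they were 17 up and 7 down in KO2 and 10 up and 10 down in WT cells, beside medians of -0.44 and -0.25. In KO1 cells the split stayed within 10 percentage points on either scale. With plain total counts as library sizes, 17 rose and 15 fell in KO2 cells over 9 h. WT libraries held 120 to 257 spike-in counts each, which limits the precision of the spike-in scale there.

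**Figure D1:**
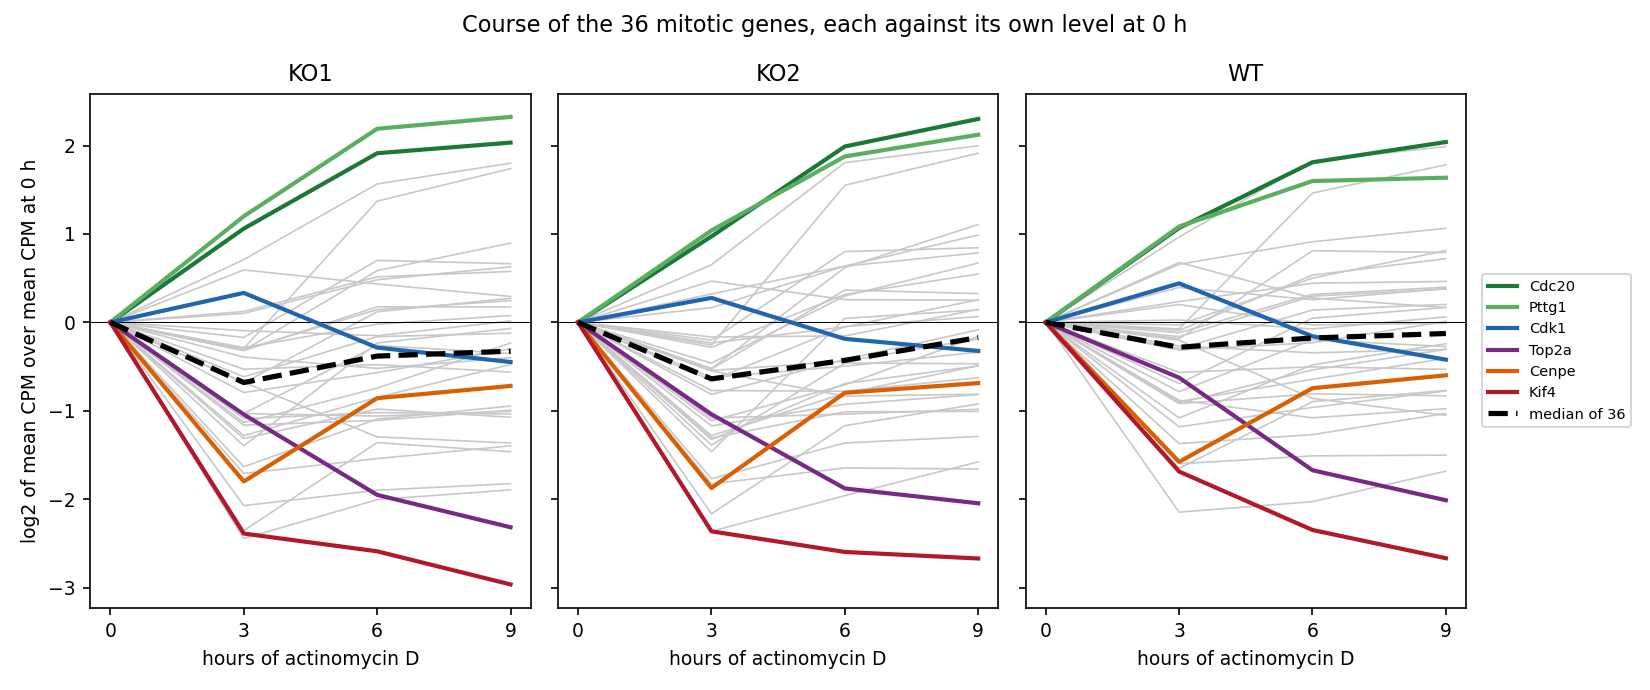
Each line is 1 of the 36 genes, as the log2 of its mean CPM over its own mean at 0 h (y axis) against hours of actinomycin D (x axis), in KO1, KO2 and WT cells. The dashed median dips at 3 h and returns part of the way by 9 h, and the coloured genes show the range from Cdc20 and Pttg1, which rise, to Top2a and Kif4, which fall.

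Of the anaphase switch, Cdc20 and Pttg1 rose steeply over the course and Ube2c stayed in a narrow range of CPM. Cdc20, the activator of the anaphase-promoting complex, stood at 70.2 and 67.2 CPM at 0 h, 145 and 141 CPM at 3 h, 262 and 255 CPM at 6 h and 285 and 277 CPM at 9 h in KO1 cells. It stood at 64.1 and 68.5 CPM at 0 h, 131 and 129.7 CPM at 3 h, 262 and 264 CPM at 6 h and 328 and 325 CPM at 9 h in KO2 cells. WT cells had 68.2 and 67.1 CPM at 0 h, 138 and 145 CPM at 3 h, 239 and 236 CPM at 6 h and 280.0 and 276 CPM at 9 h. Every step was upward, with no overlap between times, and the 9 h change was 2.03 ± 0.04 (SE, adjusted p = 4.16e-74) on the log2 scale in KO1, 2.30 ± 0.04 (SE, adjusted p = 5.96e-80) in KO2 and 2.04 ± 0.04 (SE, adjusted p = 9.76e-75) in WT cells. Pttg1, which encodes securin, the inhibitor of separase, rose as well, with 22.1 and 24.8 CPM at 0 h, 55.5 and 52.3 CPM at 3 h, 107 and 106 CPM at 6 h and 114 and 121 CPM at 9 h in KO1 cells. Its levels were 30.8 and 32.6 CPM at 0 h, 63.3 and 67.0 CPM at 3 h, 115 and 117 CPM at 6 h and 133 and 143 CPM at 9 h in KO2 cells. WT cells had 28.2 and 31.7 CPM at 0 h, 63.3 and 63.9 CPM at 3 h, 92.3 and 89.3 CPM at 6 h and 94.4 and 92.0 CPM at 9 h. The rise of Pttg1 over 9 h was 2.32 ± 0.06 (SE, adjusted p = 5.79e-60) in KO1, 2.12 ± 0.06 (SE, adjusted p = 4.88e-60) in KO2 and 1.64 ± 0.06 (SE, adjusted p = 7.92e-48) in WT cells. Ube2c, the ubiquitin-conjugating enzyme of the same complex, stayed between 76.3 and 103 CPM in all 24 libraries. With spike-in totals, the 9 h log2 changes of Cdc20 were 2.11, 1.17 and 1.21 in KO1, KO2 and WT cells, so its rise did not rest on the scale. Those of Pttg1 were 2.40, 0.99 and 0.81, all called higher. Those of Ube2c were 0.09, not called, in KO1, and -0.98 and -0.77, called lower, in KO2 and WT cells.

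Among the cyclins and their regulators, the members parted. Cdc25c rose late, to 34.3 and 36.3 CPM in KO1 and 42.3 and 39.3 CPM in KO2 cells at 9 h, against 46.6 and 42.7 CPM in WT cells. At 0 h the levels were 9.68 and 11.5 CPM, 11.3 and 10.4 CPM and 13.7 and 12.2 CPM in the same order. Cdc25b, its paralogue, fell instead, with log2 changes over 9 h of -0.56, -0.34 and -0.53 in KO1, KO2 and WT cells. With total counts as library sizes the KO2 call was lost (edgeR adjusted p = 0.102). Ccnb1 dipped or held at 3 h and then climbed, with 86.3 and 88.5 CPM at 0 h, 71.0 and 69.4 CPM at 3 h, 133 and 129 CPM at 6 h and 160.1 and 165 CPM at 9 h in KO1 cells. It had 89.8 and 88.1 CPM at 0 h, 61.6 and 62.3 CPM at 3 h, 138 and 135 CPM at 6 h and 189.8 and 193 CPM at 9 h in KO2 cells. WT cells had 93.2 and 97.4 CPM at 0 h, 89.4 and 89.5 CPM at 3 h, 136 and 139.7 CPM at 6 h and 154 and 160.1 CPM at 9 h. For Ccnb1 and Cdc25c every library at 6 h was already above those of 0 h of its own kind of cell. Cdk1, the kinase itself, took the opposite course, rising by 3 h and falling below its start by 9 h. The log2 change from 3 to 9 h was -0.78 ± 0.06 (SE, adjusted p = 7.71e-21) in KO1, -0.60 ± 0.06 (SE, adjusted p = 3.69e-15) in KO2 and -0.86 ± 0.06 (SE, adjusted p = 6.14e-24) in WT cells. With spike-in totals the early rise of Cdk1 was 0.17, not called, in KO1 cells, and turned to -0.40 in KO2 and -0.06 in WT cells. On that scale the 9 h rise of Ccnb1 turned to -0.02 in KO2 and -0.10 in WT cells.

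Of the kinases and passenger proteins, 3 of 6 were higher and 3 lower at 9 h than at 0 h in each kind of cell, near the shares of all genes given above. Aurka and Aurkb, the Aurora kinases of the spindle poles and of the passenger complex, rose over 9 h by 0.66 and 0.27 in KO1, 0.84 and 0.67 in KO2, and 0.79 and 0.81 in WT cells on the log2 scale. Birc5, or survivin, a subunit of the passenger complex, rose by 0.63 ± 0.06 (SE, adjusted p = 8.83e-16) in KO1, 0.99 ± 0.06 (SE, adjusted p = 5.41e-29) in KO2 and 1.06 ± 0.06 (SE, adjusted p = 2.02e-31) in WT cells. Incenp, its scaffold, fell by 1.07, 1.01 and 0.83, and Tpx2, which activates Aurka, fell by 1.04, 0.98 and 0.98 in KO1, KO2 and WT cells, all called. With spike-in totals the change of Birc5 was -0.14 in KO2 and 0.23 in WT cells, not called in either. On that scale the rise of Aurka and Aurkb over 9 h became a fall in KO2 cells, to -0.29 and -0.46, and was -0.03 and -0.02, not called, in WT cells.

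Of the 5 spindle checkpoint genes, 4 fell by 3 h in each kind of cell, and Bub3, which recruits Bub1 and BubR1 to kinetochores, rose. Bub3 had 202 and 203 CPM in KO1, 185 and 194 CPM in KO2 and 213 and 213 CPM in WT cells at 3 h, against 137 and 131 CPM, 139 and 136 CPM and 134 and 132 CPM at 0 h in that order, and these sets did not overlap. Bub1b, which encodes BubR1, fell by 1.16, 1.17 and 1.37 on the log2 scale in KO1, KO2 and WT cells, while its paralogue Bub1 fell by 0.79, 0.82 and 0.31. Mad2l1, which encodes the Mad2 protein that inhibits Cdc20, fell by 1.36, 0.81 and 1.05 over the whole course in KO1, KO2 and WT cells. With spike-in totals the 3 h change of Bub3 was 0.43 in KO1, still called higher, and -0.21 in KO2 and 0.18 in WT cells, called in neither.

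At kinetochores, the loss by 3 h was steep for some genes and was regained only in part by 9 h. Cenpe, a kinesin that carries chromosomes to the spindle equator, had 73.9 and 76.3 CPM at 0 h, 20.5 and 22.7 CPM at 3 h, 41.7 and 41.3 CPM at 6 h and 45.3 and 46.0 CPM at 9 h in KO1 cells. It had 87.1 and 84.4 CPM at 0 h, 23.9 and 22.9 CPM at 3 h, 49.6 and 49.2 CPM at 6 h and 53.5 and 53.0 CPM at 9 h in KO2 cells. WT cells had 71.7 and 72.1 CPM at 0 h, 23.1 and 25.1 CPM at 3 h, 43.1 and 42.7 CPM at 6 h and 47.9 and 47.1 CPM at 9 h. Its level at 3 h was the lowest of the 4 times in each kind of cell, with no overlap, and it climbed from 3 to 9 h by 1.08 ± 0.07 (SE, adjusted p = 4.75e-26) in KO1, 1.19 ± 0.07 (SE, adjusted p = 3.99e-30) in KO2 and 0.98 ± 0.07 (SE, adjusted p = 1.04e-23) in WT cells. Ndc80, the microtubule-binding core of the kinetochore, fell by 3 h by 2.35, 2.16 and 1.65 in KO1, KO2 and WT cells and rose afterwards by 0.89, 1.24 and 0.88. Cenpa, the histone H3 variant that marks centromeres, was the only one of these 5 to rise over 9 h, and it did so in all 3 kinds of cell, though with spike-in totals its change was -0.34 in KO2 and -0.36 in WT cells, called lower in each.

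Kinesins and cytokinesis genes included the largest single falls. Kif4, a chromosome-bound kinesin, had 42.6 and 40.9 CPM at 0 h, 8.75 and 7.20 CPM at 3 h, 7.21 and 6.66 CPM at 6 h and 6.06 and 4.64 CPM at 9 h in KO1 cells. It had 50.8 and 48.0 CPM at 0 h, 9.67 and 9.53 CPM at 3 h, 8.04 and 8.30 CPM at 6 h and 8.18 and 7.34 CPM at 9 h in KO2 cells. WT cells had 37.5 and 37.1 CPM at 0 h, 10.9 and 12.3 CPM at 3 h, 7.05 and 7.62 CPM at 6 h and 6.18 and 5.58 CPM at 9 h. Its fall over 9 h, -2.96 ± 0.12 (SE, adjusted p = 3.88e-44) in KO1, -2.67 ± 0.11 (SE, adjusted p = 6.48e-44) in KO2 and -2.67 ± 0.12 (SE, adjusted p = 1.21e-40) in WT cells, was the largest of the 36 in each kind. Ect2, the activator of RhoA in the cleavage furrow, fell by 3 h to 6.35 and 7.51 CPM in KO1, 7.34 and 7.46 CPM in KO2 and 8.28 and 8.98 CPM in WT cells, the largest early fall of the list in KO1 and WT cells. Anln, the furrow protein anillin, and Kif11, the motor that separates spindle poles, fell by 2.07 and 1.71 in KO1, 1.83 and 1.77 in KO2, and 1.60 and 1.18 in WT cells in the same 3 h. Kif20a, a kinesin of the central spindle, ran the other way and was at 109 and 110.4 CPM in KO1, 120.1 and 115 CPM in KO2 and 129.7 and 129 CPM in WT cells at 9 h. At 0 h it had been at 31.2 and 31.9 CPM, 30.5 and 28.4 CPM and 30.4 and 34.8 CPM in that order, and the rise was called in each. The log2 change was 1.99 ± 0.05 (SE, adjusted p = 6.22e-58) in WT cells. The rise in the first 3 h was 0.65 in KO2 cells, and -0.02, not called, with spike-in totals.

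Top2a, the highest of the 36 per kb, fell at every step, with 592 and 586 CPM at 0 h, 297 and 275 CPM at 3 h, 153 and 152 CPM at 6 h and 115 and 121 CPM at 9 h in KO1 cells. It had 629 and 622 CPM at 0 h, 314 and 295 CPM at 3 h, 169.6 and 171 CPM at 6 h and 151 and 152 CPM at 9 h in KO2 cells. WT cells had 538 and 532 CPM at 0 h, 349 and 345 CPM at 3 h, 167 and 168 CPM at 6 h and 130.4 and 135 CPM at 9 h. No 2 times overlapped in any kind of cell for Top2a, and its fall over 9 h was -2.32 ± 0.03 (SE, adjusted p = 2.06e-87) in KO1, -2.05 ± 0.03 (SE, adjusted p = 1.33e-84) in KO2 and -2.01 ± 0.03 (SE, adjusted p = 2.77e-82) in WT cells. Mki67 fell by 3 h and recovered in part, to 331 and 327 CPM in KO1 and 397 and 405 CPM in KO2, against 331 and 339 CPM in WT cells at 9 h.

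The early change followed the length of the gene on the chromosome. Spans from the first to the last exon, in the files' annotation on GRCm39, ran from 4.45 kb for Cdc20 (chr4:118290098-118294549) to 101 kb for Kif4 (chrX:99669343-99770820). All 19 genes spanning 20 kb or more had a log2 change below 0 in the first 3 h in each kind of cell, with medians of -1.28 in KO1, -1.28 in KO2 and -0.91 in WT cells. The 17 shorter genes had medians of -0.17, -0.20 and 0.20 in the same order. Of all genes tested, 6811 spanned 20 kb or more, and 4409, 4378 and 4478 of them lay below 0, with medians of -0.35, -0.35 and -0.40. The 9356 shorter genes tested had medians of 0.44, 0.44 and 0.48. Across the 36 genes, Spearman's rho between span and the 3 h change was -0.781 in KO1, -0.768 in KO2 and -0.83 in WT cells. Over all 16167 genes tested it was -0.368, -0.369 and -0.399, in the same direction. Without the 2 longest genes the values were -0.745, -0.729 and -0.804. The points share their libraries, and span rose with exon length (rho 0.637), so these values are descriptions across genes. Span was nearly unrelated to how far a KO line lay from WT cells at 3 h, with rho of -0.108 for KO1 and 0.037 for KO2.

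**Figure D2:**
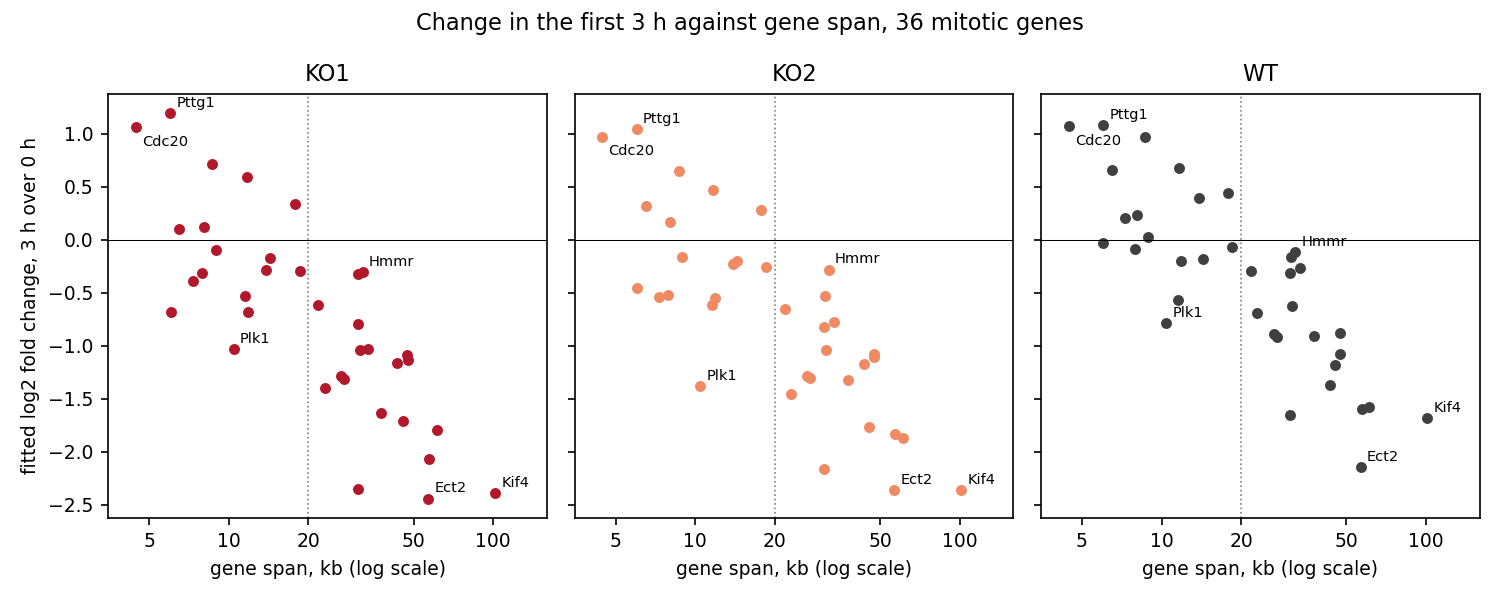
Each point is 1 of the 36 genes, with its span in kb on a log scale (x axis) against its fitted log2 fold change at 3 h over 0 h (y axis), in KO1, KO2 and WT cells. The dotted line marks 20 kb, and every gene to its right lies below 0 in all 3 panels.

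The second question is whether these messengers made up the same shares of the library in the KO lines as in WT cells. At 3 h the shares of most of them were smaller in the KO lines. Spike-ins were not used between kinds of cell, so these comparisons do not measure how much messenger was kept. In KO1 cells 26 of 36 genes were lower than in WT cells and 0 higher, where 16.7% and 20.1% of all genes tested were, and the median log2 fold change was -0.30 beside 0.02 for all genes. In KO2 cells 23 were lower and 1 higher, beside backgrounds of 17.6% and 21.1%, with a median of -0.21 beside 0.02. At an unadjusted p under 0.05 the counts in KO1 were 29 lower and 0 higher, and DESeq2 called 25 lower and 0 higher. These comparisons share the WT libraries, so they are not independent of each other. By role, the lower genes at 3 h were 5 of the 6 cyclins and their regulators in each line, 5 of the 5 kinesins in KO1 and 4 in KO2, 2 of the 5 checkpoint genes in KO1 and 4 in KO2, and 3 of the 5 kinetochore genes in KO1 and 1 in KO2.

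Cyclins were among the genes that differed most. Ccna2 (GRCm39 chr3:36619014-36626299), which encodes cyclin A2 of S and G2 phase, had 47.6 and 48.9 CPM in KO1 cells and 42.1 and 40.4 CPM in KO2 cells, against 73.9 and 73.4 CPM in WT cells at 3 h. Its log2 fold change was -0.61 ± 0.06 (SE, adjusted p = 4.58e-16) in KO1 and -0.84 ± 0.06 (SE, adjusted p = 3.75e-23) in KO2, and every KO library lay below both WT libraries. Ccnb2 had 48.2 and 45.4 CPM in KO1 cells and 51.8 and 52.3 CPM in KO2 cells, against 77.1 and 74.1 CPM in WT cells, again without overlap. Its log2 fold change was -0.69 ± 0.06 (SE, adjusted p = 4.26e-19) in KO1 and -0.54 ± 0.06 (SE, adjusted p = 6.02e-14) in KO2. At 0 h neither cyclin was called in either line, with 61.5 and 65.2 CPM in KO1 cells and 60.3 and 59.9 CPM in KO2 cells, against 63.0 and 65.0 CPM in WT cells for Ccna2. From 0 to 3 h both cyclins rose in WT cells, by 0.20 for Ccna2 and 0.39 for Ccnb2, and fell in the KO lines. The falls were 0.39 and 0.29 in KO1 and 0.54 and 0.23 in KO2 cells. The WT rises depend on the scale, since with spike-in totals they became -0.30 for Ccna2 and -0.11 for Ccnb2.

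Ccnb1, the other B-type cyclin on the list, had 71.0 and 69.4 CPM in KO1 cells and 61.6 and 62.3 CPM in KO2 cells, against 89.4 and 89.5 CPM in WT cells at 3 h and was lower by 0.35 in KO1 and 0.53 in KO2 on the log2 scale. Kif2c, which takes microtubules apart at kinetochores, had 10.1 and 10.5 CPM in KO1 cells and 9.47 and 11.1 CPM in KO2 cells, against 17.0 and 15.9 CPM in WT cells. The log2 fold change of Kif2c was -0.67 ± 0.12 (SE, adjusted p = 8.3e-07) in KO1 and -0.67 ± 0.12 (SE, adjusted p = 9.39e-07) in KO2. Ttk, the checkpoint kinase Mps1, had 10.1 and 9.86 CPM in KO1 cells and 13.0 and 12.4 CPM in KO2 cells, against 15.7 and 16.4 CPM in WT cells, or -0.69 and -0.34. For each of these 3 genes the libraries of either KO line all lay below the WT libraries. Nuf2, the partner of Ndc80, had 20.4 and 22.5 CPM in KO1 cells and 26.0 and 24.1 CPM in KO2 cells, against 31.8 and 33.4 CPM in WT cells. Birc5 had 41.0 and 40.1 CPM in KO1 cells and 48.9 and 47.6 CPM in KO2 cells, against 60.9 and 58.4 CPM in WT cells, with the same order. Aurkb was lower in KO1 at 3 h (-0.48 ± 0.07 SE, adjusted p = 1.33e-08) and missed the threshold in KO2 (-0.16 ± 0.07 SE, adjusted p = 0.0589), while Aurka was called in neither line. Bub1 was lower in each line, by 0.41 in KO1 and 0.33 in KO2 on the log2 scale. Its paralogue Bub1b was called in neither, at 39.2 and 40.8 CPM in KO1 and 39.9 and 39.4 CPM in KO2, against 35.7 and 39.9 CPM in WT cells. Plk1, the Polo-like kinase of mitotic entry, was lower by 0.43 in KO1 and 0.49 in KO2 on the log2 scale. Kif23 and Prc1, which bundle microtubules of the central spindle, were lower by 0.19 and 0.29 in KO1 and 0.36 and 0.26 in KO2. Likewise Cdc25c was lower in KO1 (-0.52) and KO2 (-0.44) and Cdc25b was called in neither. The single higher gene was Cenpa in KO2 cells, with 118 and 120.1 CPM in KO2 cells, against 103 and 109.7 CPM in WT cells, or 0.16 ± 0.04 (SE, adjusted p = 0.00112), and without WT replicate 1 at 3 h this call was lost (adjusted p = 0.0685).

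The change itself was compared between genotypes through the difference of the 0 to 3 h change. It was lower than in WT cells for 20 genes in KO1 and 24 in KO2, and higher for 0 in each, where 12.7% and 11.4% of all genes tested were lower and 13.1% and 13.3% higher. At an unadjusted p under 0.05, 23 were lower and 1 higher in KO1 and 25 lower and 1 higher in KO2, and DESeq2 called the same counts as edgeR, with 0 higher. In KO1 the largest differences were those of Nuf2 (-0.76 ± 0.12 SE, adjusted p = 8.64e-08), Ttk (-0.72), Ndc80 (-0.71) and Kif4 (-0.70). In KO2 they were those of Kif2c (-0.76 ± 0.15 SE, adjusted p = 1.77e-05), Ccna2 (-0.75), Kif4 (-0.68) and Ccnb2 (-0.63). Cdc20 and Pttg1, which rose most in the first 3 h, were called in neither. These differences are in shares of the library. With spike-in totals the median 3 h change of the listed genes was -0.84 in KO1, -1.31 in KO2 and -0.79 in WT cells. On that scale Nuf2 still fell more in KO1 than in WT cells, at -1.19 against -0.77, as did Ttk, Ndc80 and Kif4. Others fell less in KO1, such as Plk1 at -1.19 against -1.29 and Tpx2 at -1.25 against -1.38. Macrophage marker sums in both KO lines and levels of Hbb-bs and Klf1 in KO2 also differed from WT cells, as given above, and their part was not tested.

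**Figure D3:**
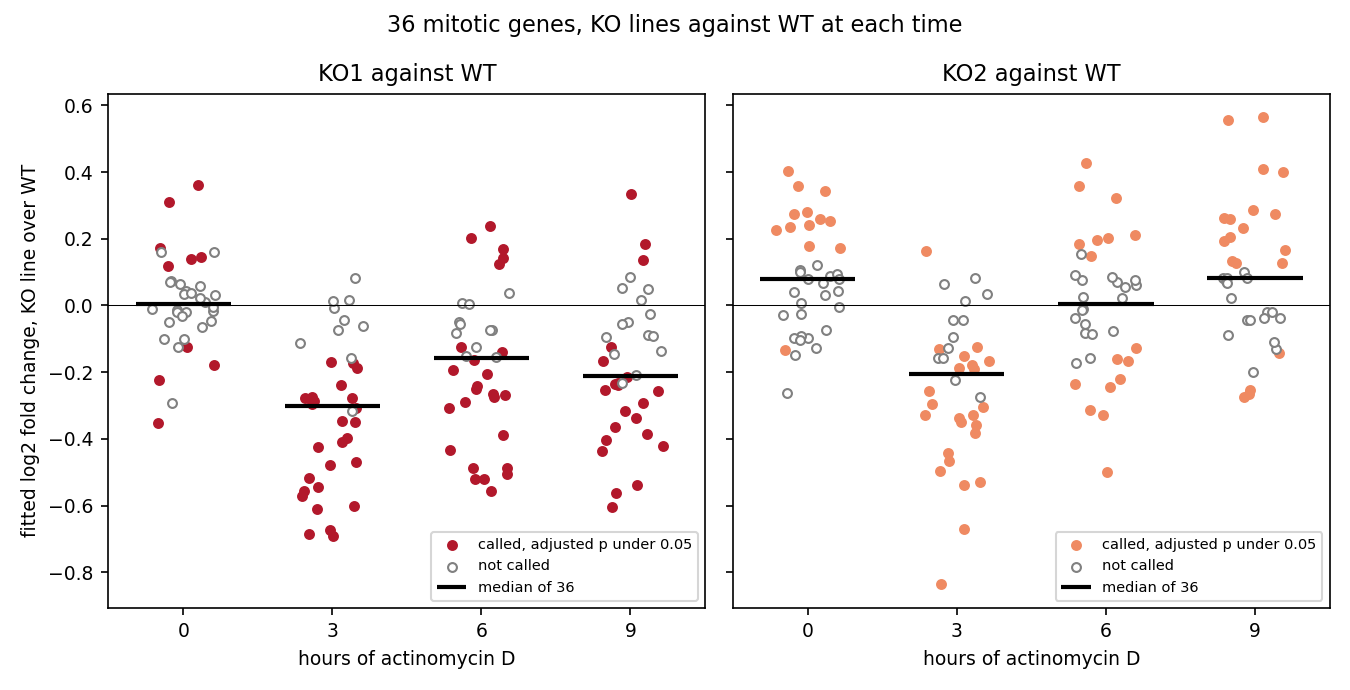
Each point is 1 of the 36 genes, as the fitted log2 fold change of a KO line over WT cells (y axis) at each time (x axis), for KO1 on the left and KO2 on the right. Filled points passed the test, bars are medians, and at 3 h the median is -0.30 for KO1 and -0.21 for KO2.

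At 0 h, 26 of the 36 genes were not called in KO1 and 23 not in KO2. In KO1 cells 6 genes were higher and 4 lower, close to the background of 15.0% and 12.3%. In KO2 cells 12 were higher and 1 lower, beside 15.1% and 14.3%. Kif4 had 50.8 and 48.0 CPM in KO2 cells, against 37.5 and 37.1 CPM in WT cells, or 0.40 ± 0.09 (SE, adjusted p = 6.34e-05). Ndc80 had 71.4 and 73.9 CPM in KO1 cells and 76.1 and 74.3 CPM in KO2 cells, against 58.2 and 59.0 CPM in WT cells. The log2 fold change of Ndc80 was 0.31 ± 0.06 (SE, adjusted p = 4.41e-05) in KO1 and 0.36 ± 0.06 (SE, adjusted p = 1.58e-06) in KO2. Both were above WT cells without overlap. Mad2l1 was higher in KO1 cells, at 122 and 128 CPM against 101 and 93.7 CPM in WT cells (0.36 ± 0.05 SE, adjusted p = 1.6e-10). Pttg1 was lower there, at 22.1 and 24.8 CPM against 28.2 and 31.7 CPM (-0.35 ± 0.08 SE, adjusted p = 0.000122). The KO1 count of 10 dropped to 6 without KO1 replicate 1 or without WT replicate 2 at 0 h. Its split was 4 higher and 6 lower with total counts, 6 and 2 with no filter on low counts, and 4 and 5 with only the groups compared in the fit.

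Later the KO lines parted from each other. At 6 h, 20 genes were lower and 5 higher in KO1 than in WT cells (background 17.4% and 18.4%). In KO2 9 were lower and 8 higher (16.8% and 17.5%). With total counts as library sizes the KO2 split at 6 h turned to 4 lower and 14 higher. Nuf2 had 22.6 and 19.5 CPM in KO1 cells and 25.3 and 24.4 CPM in KO2 cells, against 29.7 and 32.2 CPM in WT cells at 6 h, lower in every KO library, with log2 fold changes of -0.56 in KO1 and -0.31 in KO2. The KO2 call of Nuf2 was lost without WT replicate 2 at 6 h (adjusted p = 0.0677). Tpx2 had 72.4 and 72.3 CPM in KO1 cells and 77.7 and 79.5 CPM in KO2 cells, against 62.8 and 63.0 CPM in WT cells at 6 h, higher in every KO library, by 0.20 in KO1 and 0.32 in KO2 on the log2 scale. Hmmr, a spindle-associated receptor for hyaluronan, was lower by 0.27 in KO1 and 0.13 in KO2 on the log2 scale. At 9 h, 19 were lower and 3 higher in KO1 (15.1% and 19.3%), with a median of -0.21. In KO2 4 were lower and 15 higher at 9 h (16.5% and 18.7%), with a median of 0.08, or 2 lower and 18 higher with total counts.

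Kif11 was lower in each line at 9 h, with 58.4 and 53.8 CPM in KO1 cells and 71.2 and 65.8 CPM in KO2 cells, against 80.9 and 84.9 CPM in WT cells. The log2 fold change of Kif11 was -0.56 ± 0.05 (SE, adjusted p = 6.05e-17) in KO1 and -0.28 ± 0.05 (SE, adjusted p = 2.31e-06) in KO2. Ccna2 was also lower in each line, with 47.5 and 48.5 CPM in KO1 cells and 51.4 and 54.4 CPM in KO2 cells, against 63.7 and 63.4 CPM in WT cells. Pttg1 went the other way, with 114 and 121 CPM in KO1 cells and 133 and 143 CPM in KO2 cells, against 94.4 and 92.0 CPM in WT cells. The log2 fold change of Pttg1 was 0.33 ± 0.05 (SE, adjusted p = 2.24e-09) in KO1 and 0.57 ± 0.05 (SE, adjusted p = 2.16e-20) in KO2. Cenpa joined it, with 140.2 and 142 CPM in KO1 cells and 175 and 191 CPM in KO2 cells, against 123 and 126 CPM in WT cells, or 0.18 ± 0.04 (SE, adjusted p = 9.46e-05) and 0.56 ± 0.04 (SE, adjusted p = 1.56e-24). For all 4 genes the libraries of both KO lines lay on 1 side of the WT libraries. Bub3 was the third gene higher in KO1 at 9 h, at 166 and 162 CPM against 150.5 and 148 CPM in WT cells. Ttk and Nuf2 were lower in KO1 at 9 h, by 0.61 and 0.54 on the log2 scale, and were not called in KO2. Ccnb1 and Cdc20 were higher in KO2 at 9 h, by 0.29 and 0.23, and were not called in KO1, where Cdc20 had 285 and 277 CPM against 280.0 and 276 CPM in WT cells.

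Over the whole 9 h, the change differed from that of WT cells for 16 genes in KO1, 14 of them lower (background 12.5% lower and 14.7% higher). It differed for 9 genes in KO2, 6 of them higher (13.5% higher and 12.4% lower). The KO1 split was 4 higher and 13 lower with total counts, and the KO2 split 6 higher and 1 lower with RLE size factors, with DESeq2 or with no filter, and 9 higher and 1 lower with total counts. The rise of Pttg1 was larger than in WT cells by 0.69 ± 0.09 (SE, adjusted p = 4.49e-10) in KO1 and 0.49 ± 0.08 (SE, adjusted p = 1.81e-06) in KO2. That of Ccnb1 was larger by 0.18 ± 0.06 (SE, adjusted p = 0.0132) and 0.39 ± 0.06 (SE, adjusted p = 1.42e-08). Leaving out any of 4 libraries (KO1 replicate 1 or WT replicate 2 at 0 h, KO1 replicate 2 or WT replicate 1 at 9 h) ended the Ccnb1 call in KO1. Kif11 fell further in each line, with differences of -0.62 ± 0.07 (SE, adjusted p = 2.33e-13) in KO1 and -0.52 ± 0.06 (SE, adjusted p = 1.12e-10) in KO2. As shares of the library, Nuf2, Ndc80 and Ttk fell more in KO1 than in WT cells, by 0.70, 0.69 and 0.64. With spike-in totals their 9 h changes were -0.93, -1.39 and -0.87 in KO1, against -1.14, -1.61 and -1.14 in WT cells. Each was then a smaller fall in KO1. Kif11 also fell less in KO1 on that scale, at -1.32 against -1.60 in WT cells, but still further in KO2, at -2.42. The median change of the listed genes was -0.25 in KO1 and -0.95 in WT cells on that scale.

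**Figure D4:**
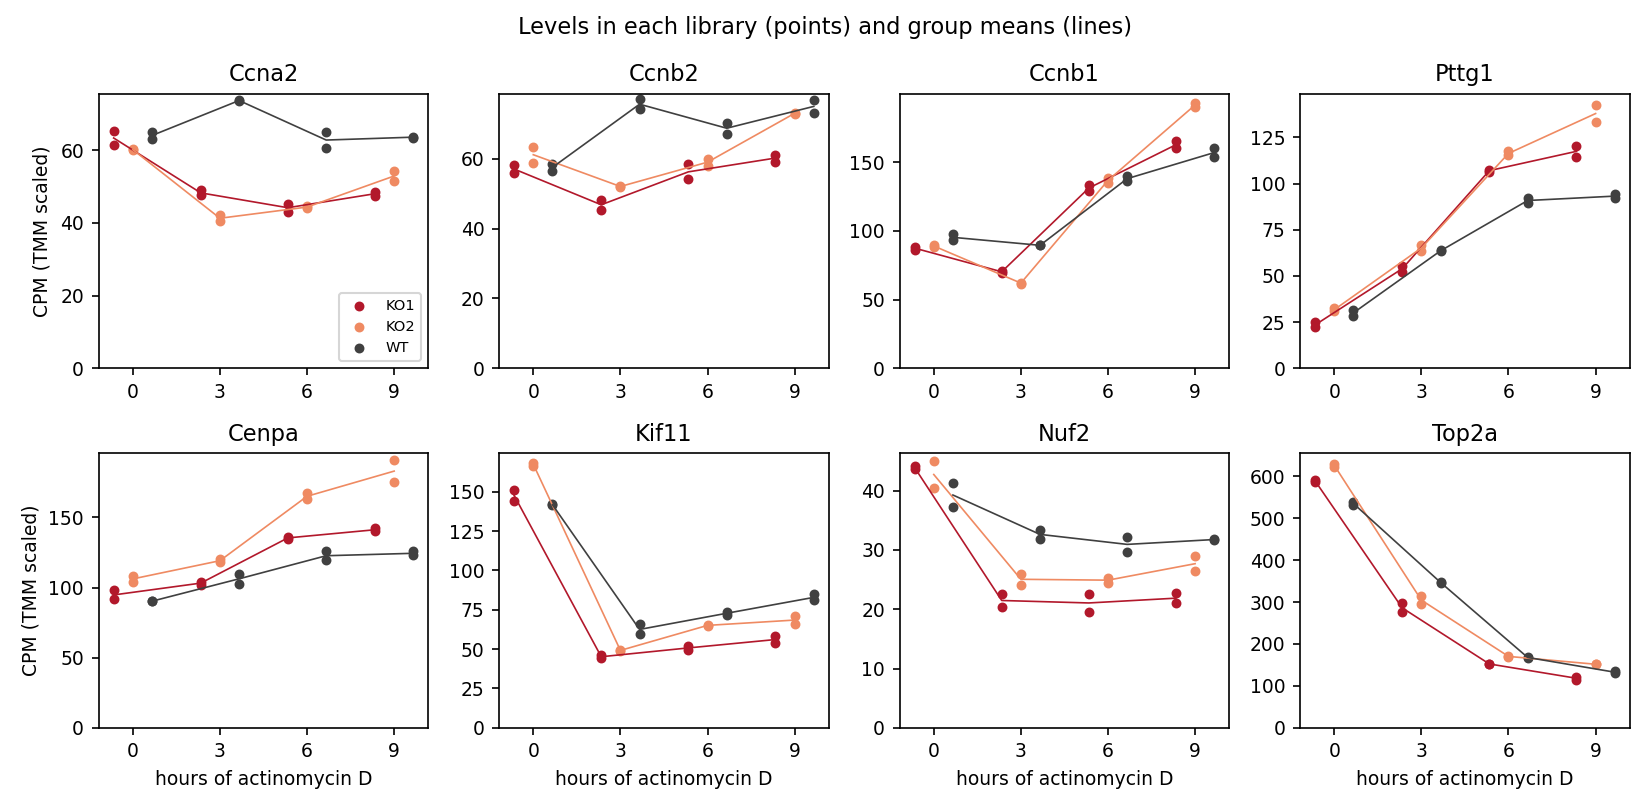
Levels in CPM (y axis, from 0) against hours of actinomycin D (x axis) for 8 genes, with a point for each library and a line through the means of KO1, KO2 and WT cells, drawn left to right at each time. Ccna2 and Ccnb2 separate from WT at 3 h, Kif11 ends below WT in each KO line and Nuf2 in KO1, and Pttg1 and Cenpa end above WT.

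Set directly against KO1, with no WT library involved, KO2 cells held larger library shares of these messengers at the end. At 9 h, 26 of 36 genes were higher in KO2 and 0 lower, beside 4.89% and 7.54% of all genes tested, with a median log2 fold change of 0.25 beside -0.01 for all genes. At an unadjusted p under 0.05, 33 were higher and 0 lower, DESeq2 called 24 higher and 0 lower, and the edgeR count ranged from 18 to 24 when any 1 library was left out. At 0 h, 10 were higher and 1 lower (7.29% and 9.55%). This count of 11 dropped to 6 without KO1 replicate 1 at 0 h, and to 7 without KO1 replicate 2, without KO2 replicate 1 or with no filter on low counts. The 0 h differences were led by Pttg1, at 0.43, and Mki67, at 0.30. Ndc80 had 41.0 and 38.4 CPM in KO2 cells, against 25.8 and 26.9 CPM in KO1 cells at 9 h, or 0.59 ± 0.08 (SE, adjusted p = 4.71e-10). Aurkb had 85.9 and 84.4 CPM in KO2 cells, against 58.6 and 62.0 CPM in KO1 cells, or 0.50 ± 0.06 (SE, adjusted p = 1.45e-12). Mad2l1 had 63.9 and 60.8 CPM in KO2 cells, against 47.2 and 49.8 CPM in KO1 cells, or 0.36 ± 0.06 (SE, adjusted p = 1.55e-07). In all 3 the KO2 libraries lay above both KO1 libraries. The change over 9 h differed for 12 genes, all higher in KO2, or 10 higher and 0 lower by DESeq2 and 19 higher and 1 lower at an unadjusted p under 0.05 (background 3.30% higher and 4.21% lower), among them Mad2l1 (0.55 ± 0.07 SE, adjusted p = 1.4e-09), Ndc80 (0.54), Ttk (0.45) and Aurkb (0.40). That count was 7 without KO1 replicate 2 at 0 h, and the Ttk call was lost when any of 5 single libraries was left out (KO1 replicate 2 or KO2 replicate 2 at 0 h, either KO1 replicate or KO2 replicate 1 at 9 h). These differences of change are in shares of the library and depend on the scale. With spike-in totals the 9 h changes were -1.29 in KO1 and -1.94 in KO2 for Mad2l1, and -1.39 and -2.05 for Ndc80. They were -0.87 and -1.62 for Ttk and 0.35 and -0.46 for Aurkb, each lower in KO2. On that scale the median over all genes was 0.20 in KO1 and -1.03 in KO2. The comparison of the lines at 9 h and that of their changes over 9 h were both added after the data had been seen.

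Around the 36, a further 142 genes of mitosis were listed by role, and 141 were tested. At 3 h, 59 were lower and 30 higher in KO1 than in WT cells (background 16.7% and 20.1%), and 36 lower and 36 higher in KO2 (17.6% and 21.1%). At 9 h, 65 were lower and 24 higher in KO1 (15.1% and 19.3%), and 21 lower and 32 higher in KO2 (16.5% and 18.7%). In the first 3 h, 106 fell in KO1, 99 in KO2 and 83 in WT cells, and 25, 29 and 38 rose. Of all genes tested 33.4%, 33.3% and 33.5% fell in those 3 h, and 37.9%, 37.6% and 38.6% rose. The lowest median of the 6 lists belonged to the 22 genes of condensin and cohesin, the rings that fold and hold chromosomes, with 20, 19 and 18 falling and medians of -1.01, -1.07 and -0.93 in KO1, KO2 and WT cells. Of 17 genes of the anaphase-promoting complex, 10, 9 and 9 fell in the same order.

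Gtse1, which is expressed in G2 and S phase, was higher in each line at all 4 times, with 273 and 270.2 CPM in KO1 cells and 269 and 278 CPM in KO2 cells, against 173 and 170.3 CPM in WT cells at 3 h. The log2 fold change of Gtse1 was 0.66 ± 0.03 (SE, adjusted p = 6.71e-33) in KO1 and 0.67 ± 0.03 (SE, adjusted p = 1.3e-33) in KO2. At 0 h it was already higher, by 0.56 in KO1 and 0.65 in KO2, with 47.7 and 48.0 CPM in KO1 cells and 49.1 and 52.6 CPM in KO2 cells, against 35.1 and 29.6 CPM in WT cells. Fbxo5, the Emi1 inhibitor of the anaphase-promoting complex, was lower at 3 h, with 13.2 and 12.8 CPM in KO1 cells and 17.2 and 16.3 CPM in KO2 cells, against 20.4 and 21.9 CPM in WT cells. The log2 fold change of Fbxo5 was -0.70 ± 0.10 (SE, adjusted p = 6.18e-09) in KO1 and -0.34 ± 0.10 (SE, adjusted p = 0.00305) in KO2. Wee1, the kinase that holds Cdk1 inactive, was lower too, at 17.0 and 14.4 CPM in KO1 cells and 17.3 and 16.9 CPM in KO2 cells, against 19.4 and 24.1 CPM in WT cells. Foxm1, a transcription factor of late cell-cycle genes, was lower at 3 h by 0.43 in KO1 and 0.31 in KO2 on the log2 scale. Anapc1, the largest subunit of the complex, and Nipbl, the cohesin loader, were higher at 3 h, by 0.41 and 0.46 in KO1 and 0.42 and 0.56 in KO2 on the log2 scale. Nipbl nevertheless fell over those 3 h in WT cells, by 2.76 on the log2 scale.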

How the data were processed

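Polyadenylated RNA of KO1, KO2 and WT 32D cells was measured at 4 times with 2 libraries per group, 24 in all. The deposited tables hold raw counts of read pairs per gene, which the authors made with featureCounts 1.6.3 on Ensembl 105 genes of GRCm39 with added spike-in sequences, per the file headers, counting exons without regard to strand, so that antisense and overlapping genes cannot be told apart. STAR and DESeq2 are named in the submitters' processing notes without versions. The libraries held 15361601 to 17338939 counts, and having only 2 per group limits the precision.

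Counts were fitted with edgeR 4.0.16 (quasi-likelihood test, 12 group coefficients, TMM factors, filterByExpr with a minimum count of 10), with Benjamini-Hochberg adjustment over all 16167 genes tested and calls at an adjusted p under 0.05. The biological coefficient of variation was 0.0206. Differences of change are interaction contrasts in the same fit. The fit was tested on simulated data. Replicate libraries differed by more than sampling noise (chi-square per degree of freedom 1.43 to 2.31), and each counted as 1 replicate, as described. That check cannot tell biological from technical replicates. The adjusted p-values rest on the spread between such libraries, not on a spread between lines. Alternatives were RLE factors, unscaled totals, spike-in totals (times only), no filter, only the groups compared, a replicate block, DESeq2 1.42.0 and leaving out each library.

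The 36 genes and the further lists were chosen with earlier results of these data known. Named with values were, by rule, the 4 called genes with the largest rise and the 4 with the largest fall per comparison, the ends of the order of levels, 4 paralogue pairs (Ccnb1 and Ccnb2, Aurka and Aurkb, Bub1 and Bub1b, Cdc25b and Cdc25c) and up to 2 called genes each way from each further list; genes named beside these were chosen after their values were seen. Lin54 of the further lists matched no gene. One of the marker genes is not reported here. Promoter windows are RefSeq's on GRCm38.p6 and were matched by symbol, while gene positions are those of the files on GRCm39.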

Additional observations from a re-analysis of the deposited data

Results flagged for a closer look

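The tests of a difference between kinds of cell in the change over time singled out the results below. In each, the change of a gene's share of the library over the drug course was not the same in 2 kinds of cell. With spike-in totals some of these differences lay the other way, as given above. From 0 to 3 h the change differed from WT cells for 20 of the 36 genes in KO1 and 24 in KO2, all lower. The largest in KO1 were Nuf2 at -0.76, Ttk at -0.72, Ndc80 at -0.71 and Kif4 at -0.70 on the log2 scale. In KO2 they were Kif2c at -0.76, Ccna2 at -0.75, Kif4 at -0.68 and Ccnb2 at -0.63.

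From 0 to 9 h the change differed from WT cells for 16 genes in KO1 and 9 in KO2. In KO1, Pttg1 stood at 0.69 and Ccnb1 at 0.18, while Nuf2 stood at -0.70, Ndc80 at -0.69, Ttk at -0.64 and Kif11 at -0.62. In KO2, Pttg1 stood at 0.49, Ccnb1 at 0.39, Cenpa at 0.32 and Cdc20 at 0.26, while Kif11 stood at -0.52, Nuf2 at -0.32 and Incenp at -0.18. With spike-in totals the 9 h changes in KO2 and WT cells were 0.99 and 0.81 for Pttg1 and -0.02 and -0.10 for Ccnb1. They were -0.34 and -0.36 for Cenpa, and 1.17 and 1.21 for Cdc20, which then rose less in KO2. Those of Kif11 were -2.42 and -1.60, of Nuf2 -1.75 and -1.14 and of Incenp -2.14 and -1.66. The KO2 calls of Nuf2 and Incenp were lost with RLE factors, with unscaled totals, with no filter and with DESeq2.

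Between KO2 and KO1 the 9 h change differed for 12 genes, led by Mad2l1 at 0.55, Ndc80 at 0.54, Ttk at 0.45 and Aurkb at 0.40, all higher in KO2. That comparison of the lines was added after the data had been seen. Macrophage marker sums, levels of Hbb-bs and spike-in shares also differed between the 3 kinds of cell, and their part in these differences was not tested.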

How the results depend on the processing

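Counts of calls held within 1.5 times under RLE factors, unscaled totals, a fit of only the groups compared, DESeq2 and the replicate block, and under no filter except for KO2 against KO1 at 0 h, where the count was 7, against 11. With unscaled totals the splits of KO1 against WT at 0 h and of KO2 against WT at 6 h shifted, as given above. Leaving out 1 library gave ranges of 6 to 7 for KO1 against WT at 0 h, 6 to 8 for KO2 against KO1 at 0 h and 7 to 12 for their difference in the 9 h change, and all other counts of calls stayed within 1.5 times. With spike-in totals as library sizes, 36 of 140 called rises of the 36 genes over the 9 comparisons of times turned to negative log2 changes, 18 of them called lower. Those of genes named by rule were 14, namely Kif20a -0.025 and Bub3 -0.21 in KO2 from 0 to 3 h, Ccnb2 -0.11 in WT from 0 to 3 h, Bub1b -0.10 and Cdc25b -0.17 in KO2 from 3 to 9 h. The others were Bub1 -0.002 in WT from 3 to 9 h, Ccnb1 -0.022, Ccnb2 -0.88, Aurka -0.29 and Aurkb -0.46 in KO2 from 0 to 9 h, Ccnb1 -0.10, Ccnb2 -0.45, Aurka -0.033 and Aurkb -0.021 in WT from 0 to 9 h. The cause was not tested. Among values of single genes under the alternatives, 2612 kept their call and direction, 140 lost the call and 14 are those just given. Replicate numbers did not pair the libraries (correlation of same-numbered deviations -0.023 to 0.153 over 66 pairs of groups, 4 of them over 0.1), and with the replicate block 26 genes were called for KO1 against WT at 3 h, 24 for KO2 against WT at 3 h and 26 for KO2 against KO1 at 9 h. Differences of change between kinds of cell were not fitted with spike-in totals. Some lay the other way by the spike-in changes given above. Low spike-in counts in WT libraries limit the spike-in scale.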
